A study of Mus musculus with 16 samples.

Results

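The array used in this series carries probes for genomic regions that bear no gene name, only a position in the mouse genome build mm9. The regions described here are those whose signal was highest in EpiSC, primed epiblast stem cell lines. They were chosen by measured values, as probes that the scanner software marked as well above background on all 4 EpiSC arrays and whose EpiSC mean lay at least 1 log2 unit above the mean of each other group. Of 16194 position-named probes, 586 met this rule (3.62%), or 10.1% of the 5782 that were well above background on all 4 EpiSC arrays. These 586 members lie in 285 of the 4610 regions on the array and form 206 groups of regions with gaps of at most 100 kb. Since EpiSC against the other groups is what chose them, that contrast is described below and not tested. Each value is the log2 processed signal after the array's own 75th percentile was taken off, so 0 is the level of a probe brighter than 75% of the others. Members of a region, and overlapping regions, may measure the same transcript and are not independent.

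RNA was measured on 16 single-colour Agilent arrays, 1 for each of 16 lines of the mouse strain 129/Ola, with 4 lines in a group. EpiSC lines were derived from the post-implantation epiblast and grown in Activin A and bFGF, at passage 24 or 28. LIF_serum lines, called naive in the labels, came from embryos before implantation and were grown in LIF and serum, at passage 23 to 26. The 2i_LIF and 2iSB_LIF lines, called ground state, also came from embryos before implantation. The former were grown in 2i and LIF at passage 22 to 24, and the latter in 2i, LIF and SB431542, an inhibitor of the Activin, Nodal and TGF-beta receptors, at passage 17 to 24. The labels name no feeder cells and no transgene, and EpiSC differ from all other lines in embryonic stage as well as in medium. A lower signal may come from fewer cells of a type or from less RNA per cell, which bulk RNA cannot tell apart.

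Long noncoding RNAs are transcripts longer than typical small RNAs that are not known to encode a protein. Many are made from the stretches between protein-coding genes, are less abundant than messenger RNAs and are often restricted to a few cell types. In pluripotent cells some act in the nucleus, where they recruit chromatin-modifying complexes or influence nearby genes, while for most no function is known. Naive cells resemble the inner cell mass before implantation and primed cells the epiblast after it, and the passage between both states changes the use of enhancers and of the noncoding transcripts near them. Whether each region is intergenic in the mm9 annotation, and which genes flank it, was not analysed here, so the regions are given by position and by their neighbours among the array's own regions.

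Between 52.8% and 64.5% of spots were well above background per array, and no spot was saturated. Of 15 primed epiblast genes, 11 met the same rule as the members, and of 15 naive genes 0 did. Fgf5, a growth factor of the epiblast after implantation, ranged from 3.58 to 4.42 on the EpiSC arrays and was -0.26 or lower on every other array. Pou3f1, a POU factor of primed cells, ranged from 4.65 to 5.23 on the EpiSC arrays and reached 2.53 at most elsewhere. Otx2, a homeobox factor of the epiblast, had its lowest mean in EpiSC, at 3.80 against 4.66 in LIF_serum, 4.79 in 2i_LIF and 4.28 in 2iSB_LIF, and Dnmt3b, a de novo DNA methyltransferase, was at 6.39 in EpiSC and 6.80 in LIF_serum. Zfp42, the naive marker Rex1, was between -2.50 and -1.63 in EpiSC and 5.58 or higher on the other arrays, and Esrrb, an orphan receptor of the naive network, was -2.14 or lower against 5.70 or higher. In the list of 22 fibroblast genes, all 22 were well above background on every EpiSC array, and 20 of them met the same rule as the members. The summed signal of that list was 7.56 to 8.14 in EpiSC, 6.76 and 6.45 on LIF_serum arrays 1 and 2, 3.95 and 4.06 on LIF_serum arrays 3 and 4, 1.62 to 2.32 in 2i_LIF and 1.78 to 2.18 in 2iSB_LIF. Col1a1, a fibrillar collagen, was between 5.18 and 5.61 in EpiSC, and at 4.65, 4.47, 1.38 and 1.81 in LIF_serum. Thy1, a surface protein of fibroblasts and other cells, was between 3.10 and 3.99 in EpiSC and overlapped LIF_serum, at 2.42 to 3.39. The part of fibroblast RNA in the members' signal was not tested. All EpiSC arrays lay on slide 2, together with LIF_serum arrays 3 and 4, 2i_LIF array 4 and 2iSB_LIF array 3, and the other 8 arrays lay on slide 1. Within LIF_serum, 2i_LIF and 2iSB_LIF, the 3755 position-named probes measured on all 16 arrays were higher on slide 1 than on slide 2 by a median of 0.36, 0.43 and 0.42, and the members by 0.14, 0.23 and 0.03. Gene probes shifted the other way, with medians of -0.08, -0.17 and -0.18 for slide 1 less slide 2.

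The group of EpiSC-high probes was the largest of its kind among position-named probes. When each of the other groups took the place of EpiSC in the rule, LIF_serum had 117 such probes (2.53% of those well above background on all of its arrays), 2i_LIF 14 (0.266%) and 2iSB_LIF 40 (0.76%). Few probes of the array differed between 2i_LIF and 2iSB_LIF, as given below, so each could keep the other from meeting the rule. Their counts are therefore not comparable with that of EpiSC. Among all other probes of the array, most of which carry a gene or transcript accession, 3150 met the rule for EpiSC (12.8%). By these counts EpiSC-high probes were no more frequent among position-named probes than among the others. The slide shift went opposite ways in position-named and gene probes, and all EpiSC arrays lay on slide 2. The difference between both shares therefore cannot be told apart from slide. The margin, the EpiSC mean less the highest of the other group means, had a median of 1.67 over the members and reached 6.31, with 220 members at 2 or more, 83 at 3 or more and 20 at 4 or more. The group next to EpiSC was LIF_serum for 366 members, 2iSB_LIF for 140 and 2i_LIF for 80. For 473 members every EpiSC array lay above every other array, and for 113 at least 1 other array reached the lowest EpiSC array. Among all 5782 position-named probes well above background in EpiSC, 12.1% had every EpiSC array above every other array.

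**Figure D1:**
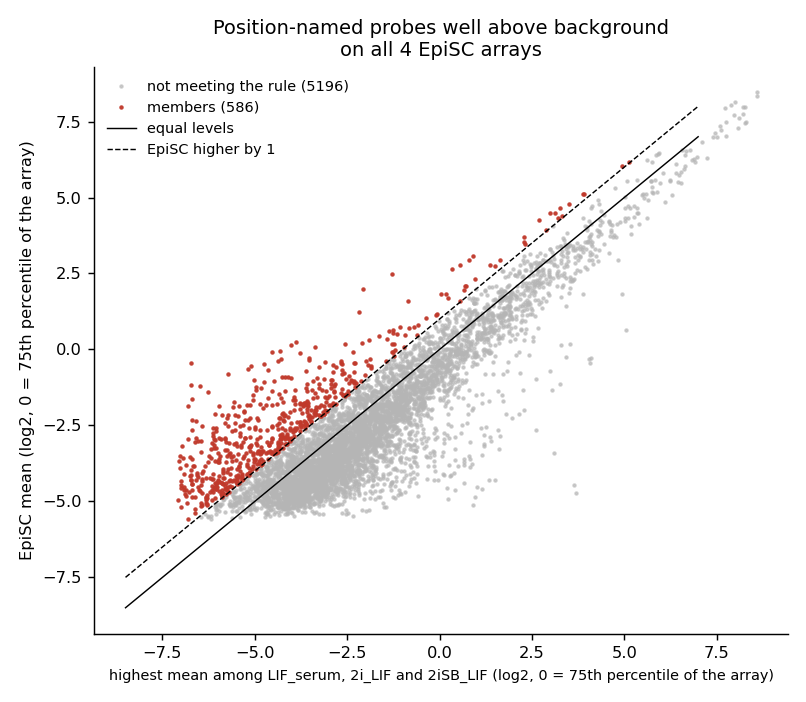
Each point is 1 of 5782 position-named probes well above background on all 4 EpiSC arrays, with the highest mean of the other groups on the horizontal axis and the EpiSC mean on the vertical axis (both log2, 0 is the array's 75th percentile). The 586 members (red) lie on or above the dashed line, 1 log2 unit over equal levels, and most lie at low levels of the other groups.

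The members differ in how far the other lines showed any signal. For 133 members in 104 regions, none of the 12 other arrays was well above background. At the other end, 109 members in 63 regions were well above background on all 16 arrays, with a median margin of 1.35. The remaining 344 members were measured on some of the 12 arrays. By group, 223 members were above background on no LIF_serum array, 229 on no 2i_LIF array and 235 on no 2iSB_LIF array. For these the measured difference is not a size, and a bound was taken against the lowest signal well above background on each array, which lay between -6.17 and -4.67. The bound was at least 2-fold for 103 of 223 members against LIF_serum, 157 of 229 against 2i_LIF and 194 of 235 against 2iSB_LIF. It fell under 1, so that no fold can be given, for 17, 2 and 0 members.

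The largest margins belong to chr2:94046243-94070067 (suffix R), a region of 23825 bp. All 5 of its probes on the array are members, with margins of 4.39 to 6.31. The probe with the largest margin of all, A_30_P01027223, read -1.75, 0.19, 0.06 and -0.25 on EpiSC arrays 1 to 4. It read between -7.32 and -6.77 in LIF_serum, between -7.60 and -7.26 in 2i_LIF, and -4.55, -7.39, -7.25 and -7.79 on 2iSB_LIF arrays 1 to 4. No LIF_serum or 2i_LIF array was well above background, and of the 2iSB_LIF arrays only the first was. The groups did not overlap, and EpiSC was at least 21.6-fold higher than LIF_serum and at least 28.9-fold higher than 2i_LIF. EpiSC array 1 was the lowest EpiSC array for all 5 probes. For A_30_P01020946 it read -2.65 where the other EpiSC arrays read -0.53, -0.71 and -0.83, and no array outside EpiSC rose over -6.26. The other 3 probes had EpiSC means of -2.31 to -1.62 and bounds against LIF_serum of at least 5.90-fold to 9.51-fold. Within 100 kb of it the regions chr2:94008913-94019798 and chr2:94017095-94019092 (both R) add 5 members with margins of 1.61 to 2.01, so that 10 of the 16 probes above background in that window met the rule.

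**Figure D2:**
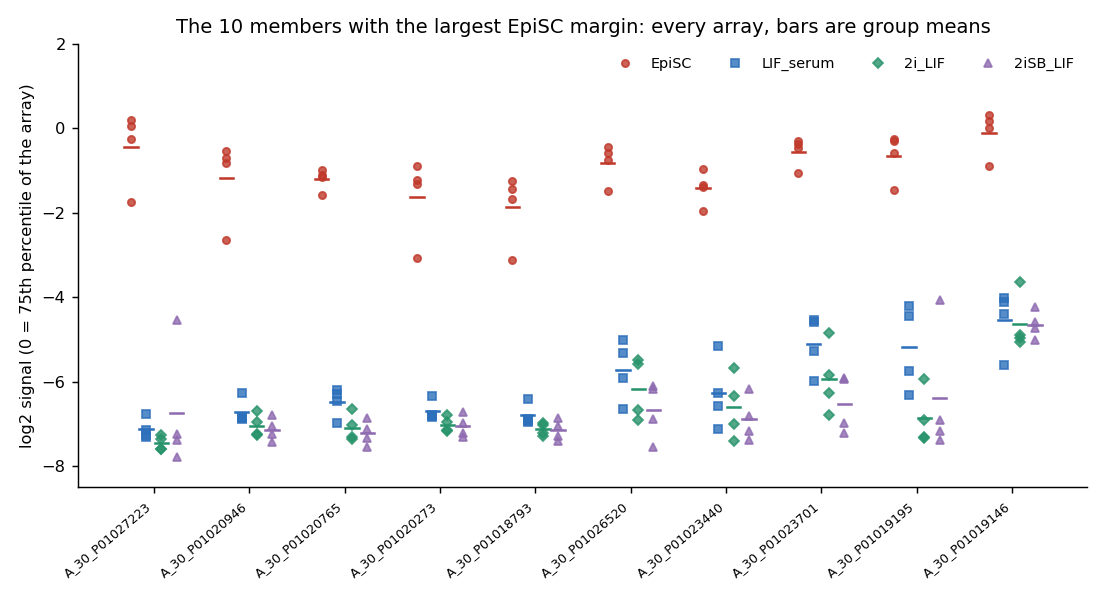
The log2 signal on each of the 16 arrays (vertical axis, 0 is the array's 75th percentile) for the 10 members with the largest margin (horizontal axis, by probe), with a bar at each group mean. EpiSC arrays lie between -3.11 and 0.32, and the other arrays, most of them not above background, between -7.79 and -3.65.

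A group of 5 regions spans chr2:127988295-128217972, all with suffix R, and holds 14 members of the 16 probes above background in and around it. Its margins run from 2.92 to 4.91, and for all 14 every EpiSC array lay above every other array. The region chr2:128211990-128215223 has 3 probes, all members. The brightest of them, A_30_P01033039, was well above background on all 16 arrays and thus measured in every group. It read 1.37, 2.39, 2.13 and 2.12 in EpiSC (mean 2.00, SD 0.44, n = 4). In LIF_serum it read -1.93, -1.35, -2.38 and -2.60 (mean -2.07, SD 0.55), in 2i_LIF -3.18, -2.75, -2.48 and -3.46 (mean -2.97, SD 0.44) and in 2iSB_LIF -2.75, -2.52, -2.85 and -3.40 (mean -2.88, SD 0.37). EpiSC thus lay 4.07 log2 units above LIF_serum, the nearest group, with no overlap. The next region, chr2:128217275-128217972, is 698 bp long and has 3 member probes with margins of 2.92 to 4.87, and chr2:128137419-128141735 has 3 with margins of 3.99 to 4.55. A_30_P01023701 of the latter read -0.37, -0.46, -0.31 and -1.06 in EpiSC and -4.55 or lower on all 12 other arrays, none of which was well above background. Adjoining it, chr2:128142035-128142481 has 3 member probes with margins of 3.45 to 4.02. The longest region of the group, chr2:127988295-128194920, contains several of the others and has 2 members among 4 probes, at 3.27 and 3.39.

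Among the 10 largest margins there are 2 further regions. In chr19:4991356-4993113 (R), A_30_P01020765 read -1.59, -1.10, -1.15 and -0.98 in EpiSC. Its other readings ran from -6.97 to -6.20 in LIF_serum, -7.36 to -6.65 in 2i_LIF and -7.54 to -6.86 in 2iSB_LIF, none above background. EpiSC was at least 12.7-fold higher than LIF_serum and at least 21.2-fold higher than 2iSB_LIF. Another probe of the region is a member at 3.37, while the remaining one, A_30_P01026266, had means of -1.65 in EpiSC and -2.43, -2.07 and -2.23 in the other groups, a margin of 0.42. Probes of 1 region can therefore differ widely. In chr13:34693404-34717987 (R), 4 of 5 probes are members with margins of 3.45 to 4.53. Its A_30_P01019195 read -1.47, -0.25, -0.58 and -0.31 in EpiSC, -5.76, -6.32, -4.44 and -4.20 in LIF_serum, and -7.33 to -5.95 in 2i_LIF. In 2iSB_LIF it read -7.38, -7.17 and -6.92 on arrays 1 to 3 and -4.06 on array 4. The probe of that region that is no member had means of 1.30 in EpiSC and 0.83, 0.92 and 0.96 elsewhere.

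The most regions in 1 group lie in chr13:28477490-28985604, 8 overlapping or neighbouring regions of suffix R with 15 members and margins of 1.21 to 3.45. In the 423545 bp region chr13:28551902-28975446 all 3 probes are members, at 3.09 to 3.23. A_30_P01018833 read -0.89, -0.89, -0.87 and -1.06 in EpiSC and -3.42, -3.35, -4.61 and -4.70 in LIF_serum. It was not well above background on any 2i_LIF or 2iSB_LIF array, and EpiSC was at least 20.3-fold and at least 25.7-fold higher than these groups. A_30_P01020189 had EpiSC readings of -2.22 to -1.90 and was above background on no other array, with bounds of at least 7.02-fold, 9.46-fold and 11.8-fold against LIF_serum, 2i_LIF and 2iSB_LIF. In chr13:28537223-28539860 the member A_30_P01029325 (-3.29 to -2.73 in EpiSC, -5.05 or lower elsewhere) stands beside A_30_P01032874, which was lower in EpiSC, at a mean of -1.65, than in the other groups, at -1.01, -0.46 and -0.60. A_30_P01023155 of chr13:28490070-28492645, at -4.30 to -4.03 in EpiSC, was above background nowhere else, and its bound against LIF_serum was only 1.69-fold. Of the 15 members, 3 were well above background on all LIF_serum arrays and 0 on all arrays of 2i_LIF or of 2iSB_LIF.

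A different pattern across arrays was found in the 13 members of chr1:175653557-175717250, all of suffix R, where 4 regions overlap or lie close together. LIF_serum arrays 1 and 2 were above arrays 3 and 4 for all 13, by 1.22 to 5.43, and EpiSC arrays 1 and 3 were both above arrays 2 and 4 for all 13. A_30_P01024163 of chr1:175705225-175717250 read 0.72, -0.22, 0.65 and -0.17 on EpiSC arrays 1 to 4. In LIF_serum it read -1.13 and -1.23 on arrays 1 and 2, and -6.44 and -6.77 on arrays 3 and 4, which were not above background. In 2i_LIF it read -2.18 on array 1 and -6.72 to -6.22 on the others, and no 2iSB_LIF array was above background. A_30_P01017895 of chr1:175654606-175672031 read -0.72, -1.59, -0.62 and -1.33 in EpiSC, -2.74 and -2.71 on LIF_serum arrays 1 and 2, and -6.47 or lower on the 10 remaining arrays. In this group LIF_serum means describe neither pair of arrays.

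The same order was seen in chr7:91558475-91733625 (F), chosen here after its values were seen, with 5 members of 6 probes and margins of 2.88 to 3.36. Its A_30_P01022821 read -0.20, -1.62, -0.49 and -1.32 in EpiSC, -1.16 and -1.95 on LIF_serum arrays 1 and 2, and -6.70 or lower on LIF_serum arrays 3 and 4. Here LIF_serum array 1 lay above EpiSC arrays 2 and 4, so that the groups overlapped. All 2i_LIF and 2iSB_LIF arrays of that probe were at -6.83 or lower. Over all members, 52 in 38 regions were well above background on both LIF_serum arrays 1 and 2 and on neither 3 nor 4 (8.87%), and 15 in 12 regions showed the opposite (2.56%). Among the 5196 other position-named probes well above background in EpiSC the shares were 7.56% and 0.731%. A difference of at least 2 between both pairs of LIF_serum arrays, in favour of arrays 1 and 2, was seen for 24 members in 14 regions (4.10%), and for 4.48% of the 5782 position-named probes. In 20 of those 24 members both EpiSC arrays 1 and 3 were above arrays 2 and 4, against 141 of the other 562. Probes of the chromosome 1 group and of the chromosome 7 region, described above for this order, are among the 24. These counts are therefore not of separate cases, and the share among probes that are no members was not taken. LIF_serum arrays 3 and 4 were higher by at least 2 for 10 members in 7 regions (1.71%, against 0.398% of position-named probes), of which 4 had EpiSC arrays 1 and 3 above 2 and 4. The fibroblast list moved in the same order, with a summed signal of 8.01, 7.68, 8.14 and 7.56 on EpiSC arrays 1 to 4, and 14 of its 22 genes were higher by at least 2 on LIF_serum arrays 1 and 2. The 39 Hox genes did so too, with a summed signal of 3.26, 2.74, 3.21 and 2.46 in EpiSC and 2.08, 2.01, 1.11 and 1.15 in LIF_serum, and 8 of them were higher by at least 2. The part of either list in these members was not tested. LIF_serum arrays 1 and 2 also differ from 3 and 4 in slide and in a code of their descriptions, LS against LSFF, not explained in the labels, and these differences cannot be told apart.

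**Figure D3:**
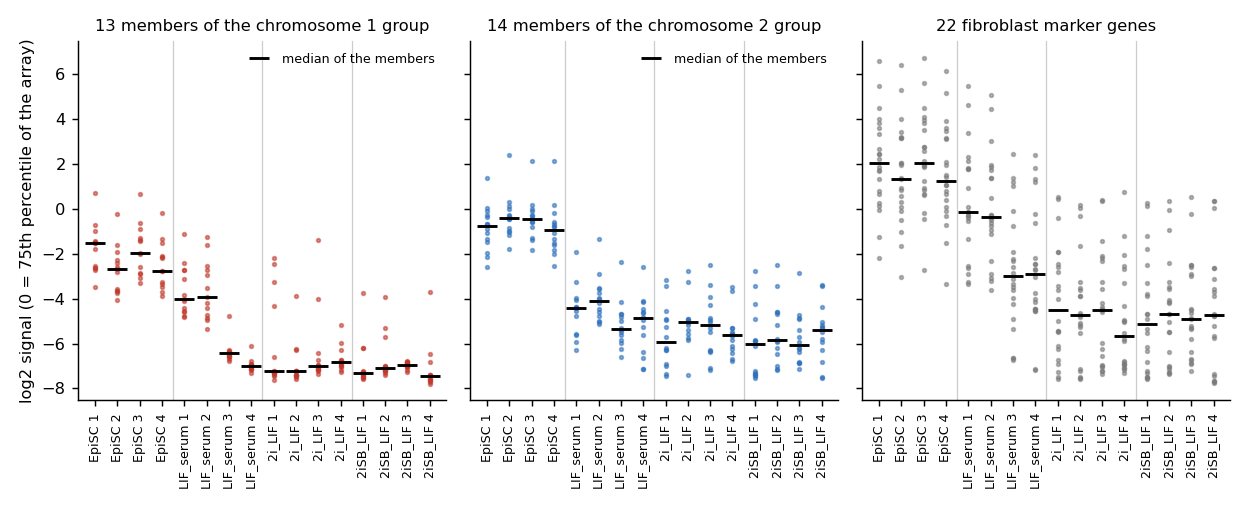
The log2 signal (vertical axis, 0 is the array's 75th percentile) on each of the 16 arrays (horizontal axis) for the 13 members of the chromosome 1 group (left), the 14 members of the chromosome 2 group (middle) and the 22 fibroblast genes (right), with a point for each probe and a bar at the median. LIF_serum arrays 1 and 2 stand above 3 and 4 in the left and right panels, and by less in the middle panel, where the differences run from 0.31 to 1.41.

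The range over the 4 EpiSC arrays had a median of 0.61, against 0.47 for position-named probes above background in EpiSC that are no members. It was under 1 for 478 of 586 members and over 2 for 10. Array 1 was the lowest EpiSC array for 250 members, array 4 for 165, array 2 for 97 and array 3 for 74. Among the 5196 position-named probes that are no members, array 1 was likewise most often the lowest, for 2018. EpiSC arrays 1 and 3 were both above 2 and 4 for 161 members, and below them for 154. The widest range was that of A_30_P01027839 in chr12:52950465-52950990 (R), which read -0.02, 1.17, -2.48 and 0.25 in EpiSC, with group means of -5.20 in LIF_serum, -3.54 in 2i_LIF and -3.68 in 2iSB_LIF. Array 3 was also the low one for A_30_P01021608 of chrX:102222494-102267068 (R), at 1.06 against 3.46, 3.79 and 4.07, and there 2i_LIF arrays 1 and 2, at 1.29 and 1.98, and 2iSB_LIF array 2, at 1.15, were above it. Both probes were picked after their values were seen, for their wide EpiSC range.

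The 5 brightest members on EpiSC arrays had small margins and were measured in every line. Brightness also depends on the probe, so their order says nothing of transcript abundance. A_30_P01020306 and A_30_P01022109 lie in chr14:22267795-22319045 (F), a region of 51251 bp. A_30_P01020306 read 6.16, 6.22, 6.08 and 6.22 in EpiSC, 5.13, 5.44, 4.95 and 4.96 in LIF_serum, 3.11, 3.53, 3.08 and 4.17 in 2i_LIF, and 3.22, 3.21, 3.86 and 2.97 in 2iSB_LIF. The levels thus fell in steps, with LIF_serum between EpiSC and both ground-state groups, which overlapped each other. All 5 members of the region kept that order, but of its other 5 probes A_30_P01021435 went the opposite way, with a mean of -4.54 in EpiSC against 0.29, 1.01 and 0.93 in LIF_serum, 2i_LIF and 2iSB_LIF. A_30_P01031572 of chr8:74820025-74833350 (F) read between 5.98 and 6.10 in EpiSC and between 4.12 and 5.33 on all other arrays. A_30_P01022011 and A_30_P01026195 of chr2:156213798-156216885 (R) had EpiSC means of 5.11 (SD 0.07) and 4.79 (SD 0.04, n = 4) and margins of 1.23 and 1.29. Of the probes measured on all 16 arrays, A_30_P01026288 of chr6:83368261-83407280 (R), chosen after its values were seen, had the next largest margin after A_30_P01033039. It read 1.78, 2.81, 2.65 and 2.65 in EpiSC and -0.69 or lower elsewhere.

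Other probes of the same region, which the rule judged separately, mostly went with the member. Of the 285 regions, 127 had 1 member probe, 158 had several and 30 had at least 4, with a maximum of 8. In 67 regions with several probes, every probe on the array was a member. Over all pairs of a member and another probe of its region that was well above background in EpiSC, the other probe was a member in 68.0% of 1499, against 10.1% of such probes overall. The 286 probes above background in EpiSC in these regions that were no members were still highest in EpiSC in 187 cases (65.4%), against 23.5% of all such non-members, and 19 lay more than 1 below another group. In addition, 288 probes of the regions were not above background on all EpiSC arrays. Of the members 356 carry the suffix R and 226 the suffix F, and 4 have no suffix. The array holds 8010 R and 8171 F probes, of which 3087 and 2689 were well above background in EpiSC, so that 11.5% and 8.40% of those met the rule. The suffix was taken to mark the strand, which the files do not state. Of 284 member regions with a suffix, 224 overlapped a region of the opposite suffix, and in 21 of these the opposite region also held a member. Of 305 opposite probes above background in EpiSC, 40 met the rule (13.1%).

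Member regions were not longer than others. Their median length was 9048 bp, with an interquartile range of 2339 to 24151 bp, and that of the 2657 regions with any probe above background in EpiSC was 11664 bp (3288 to 27601 bp). Of the 285 member regions, 128 (44.9%) had another member region within 100 kb, whereas 320 of the 2372 regions above background in EpiSC without a member (13.5%) had a member region that near. Some of these neighbours overlap, as in the groups above, and may be models of 1 transcript. In all, 157 groups held a single region, 49 held several and 19 at least 3. Besides those described, chr1:139795171-139857204 (F) held 4 regions and 7 members with margins up to 3.67, chr16:84702353-84710928 4 regions and 8 members on both strands, and chr17:12941161-13023201 4 regions and 8 members with margins up to 2.03.

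Members were unevenly spread over the chromosomes. Chromosome 13 had the most, 53 (16.5% of its position-named probes above background in EpiSC), and the shares were highest on chromosomes 16 (18.1%) and 3 (18.0%). Chromosome 11 had 2 members of 228 such probes (0.877%), both near chr11:49932129-49938154, and chromosome 8 had 7 of 388 (1.80%). On chromosome 8 the largest margin, 2.83, was that of chr8:85609155-85615170 (F). Over gene probes measured on all 16 arrays, the median deviation from the mean of the arrays was 0.51 on 2i_LIF array 4 and 0.36 on 2iSB_LIF array 1 for chromosome 8, and 0.30 and 0.31 on LIF_serum arrays 3 and 4 for chromosome 11. The EpiSC arrays lay between -0.08 and 0.01 for the former and between -0.09 and -0.04 for the latter. They lay between 0.12 and 0.19 for chromosome 3, and between 0.10 and 0.19 for chromosome 14, where the share of members was 7.27%. Medians away from 0 on single arrays were found for other chromosomes as well. Chromosome X, at 7.89%, had medians of 0.56 and 0.40 on 2i_LIF arrays 1 and 2 and of 0.35, 0.73 and 0.40 on 2iSB_LIF arrays 2 to 4. On 2iSB_LIF array 4 the median was 0.33 for chromosome 2, at 12.3%, and 0.29 for chromosome 16, which had the highest share. The part of these shifts in the counts was not tested.

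**Figure D4:**
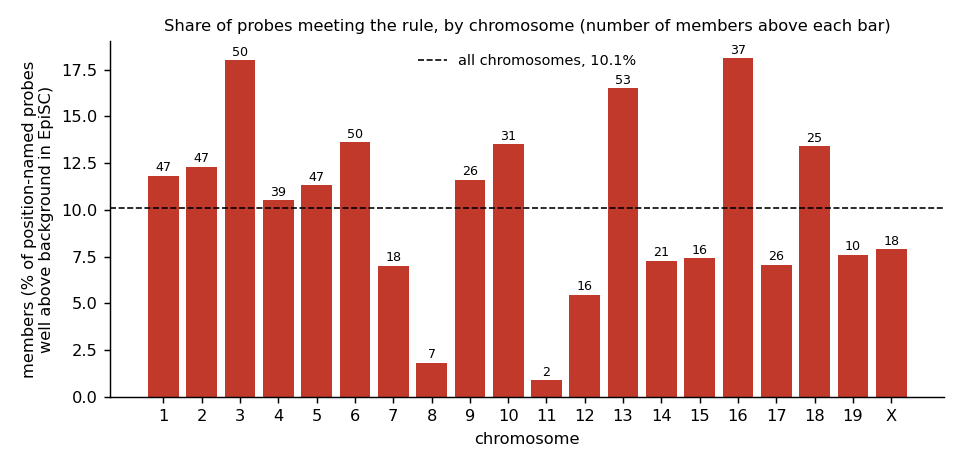
Bars give the members on each chromosome (horizontal axis) as a percentage of the position-named probes well above background on all EpiSC arrays there (vertical axis), with the number of members above each bar. The dashed line is the share over all chromosomes, 10.1%, and chromosomes 8 and 11 lie at 1.80% and 0.877%.

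The rule did not set LIF_serum, 2i_LIF and 2iSB_LIF against each other. It did require the mean of each to lie below EpiSC, so a probe high in any of them was less likely to be a member. The shares of all probes given below come from probes without that limit. Differences among the 3 groups were tested with limma over all probes of the array (adjusted p under 0.05 by Benjamini-Hochberg and at least 2-fold). The comparison of 2i_LIF with LIF_serum sets lines grown in the ground-state medium against other lines grown in LIF and serum. These lines also differ in passage and in their split over slides, so a response to the medium alone is not measured. Of the 586 members, 195 in 114 regions were well above background on every array of LIF_serum or of 2i_LIF and could be tested, and 391 could not. Of these 195, 47 were lower in 2i_LIF (24.1%, in 27 regions) and 6 higher (3.08%, in 4 regions), and 142 did not pass. The shares of all position-named probes tested were 4.73% lower and 5.95% higher, and those of all probes 8.37% and 6.08%. A member that entered through 1 group alone can hardly be called in the other direction. Through LIF_serum alone entered 55 members, 30 of the 47 lower ones among them, and through 2i_LIF alone 25, among them all 6 higher ones. Among the 115 members well above background on all 8 arrays, 17 were lower (14.8%) and 0 higher, against 3.59% and 3.36% of position-named probes so measured. Their median difference was -0.20, and 0.18 over those probes. With slide as a block 54 were lower and 6 higher, and within slide 1 53 and 6. The shares of all probes under these settings are not given here. Within slide 2, 2i_LIF has 1 array, and calls there are not counted.

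In many of these calls the lower group was not measured on every array, and its values there are only known to lie low. A_30_P01030135 lies in chr6:34548561-34612216 (F). It read -1.28, -1.28, -1.21 and -1.26 in LIF_serum and -5.62, -6.71, -4.17 and -6.77 in 2i_LIF, of which 1 was above background. The fitted difference was -4.56 (limma, SE 0.55, adjusted p = 5e-05), and -3.81 with dim values raised to the background floor of each array. On EpiSC arrays it read 0.79, 0.76, 0.87 and 0.14. A_30_P01022276 of chr13:28947034-28949166 (R), in the chromosome 13 group above, read -2.65 to -1.92 in LIF_serum and -7.53, -5.03, -3.34 and -7.27 in 2i_LIF, where 2 arrays were above background (limma difference -3.48, SE 0.69, adjusted p = 0.0023, and -2.44 with the floor). A_30_P01019163 of chr5:123439974-123448354 (F) had LIF_serum readings of -3.05 to -2.07 and was at -6.73 or lower on 3 of the 2i_LIF arrays, but at -2.62 on array 3, the only one above background (limma difference -3.44, SE 0.94, adjusted p = 0.015, and -2.10 with the floor). Within slide 1 this call was lost (adjusted p = 0.23). Where several probes of a region were tested they mostly moved together, as did all 5 members of chr14:22267795-22319045, lower in 2i_LIF by differences of -1.77 to -1.65. The probe A_30_P01020306 given above was at -1.65 (SE 0.24, adjusted p = 0.00022). All 3 members of chr13:108653722-108654406 (R), of chr3:145313275-145315057 (F) and of chr4:129380903-129390686 (R) were lower as well, by -1.40 to -1.25, -1.56 to -1.46 and -2.41 to -1.89.

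The 6 higher members lay in chr3:86827945-86886695, chr18:38398058-38409852, chr14:78214602-78225827 and chr10:18104309-18104881. A_30_P01022760 of the first (R) read -5.60 to -7.05 in LIF_serum, none above background, and -3.26, -1.90, -3.51 and -4.45 in 2i_LIF. It was at least 3.02-fold higher in 2i_LIF (limma adjusted p = 0.00021, and 0.0085 with the floor). It read -0.55, -0.26, -0.53 and -1.01 in EpiSC, above all ground-state arrays. A_30_P01028742 of the last (F) was at -7.14 to -6.55 in LIF_serum and -4.80, -4.64, -3.43 and -4.64 in 2i_LIF. No LIF_serum array was above background, and the bound was only 1.41-fold (limma adjusted p = 0.00059), so that the call was lost with the floor (adjusted p = 0.39). EpiSC array 1, at -4.45, lay within the range of the 2i_LIF arrays. A_30_P01019766 of chr18:38398058-38409852 (R) was higher by 1.67 (SE 0.39, adjusted p = 0.0063), a call lost within slide 1, where the difference was 0.92.

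**Figure D5:**
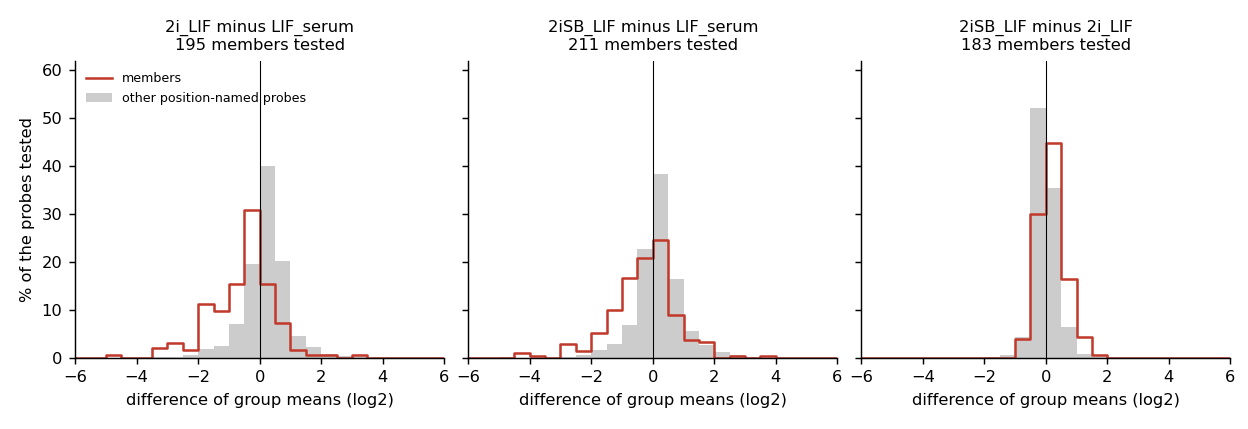
Percentage of the probes tested (vertical axis) by the difference of group means in steps of 0.5 (horizontal axis, log2), for members (red line) and the other position-named probes (grey bars) in the 3 comparisons among LIF_serum, 2i_LIF and 2iSB_LIF. The members tested numbered 195, 211 and 183, with medians of -0.35, -0.18 and 0.18.

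The comparison of 2iSB_LIF with LIF_serum shares the LIF_serum arrays with the one before. It likewise sets other lines, grown with the receptor inhibitor, against them. Of 211 members tested in 116 regions, 37 were lower (17.5%, in 21 regions), 16 higher (7.58%, in 10 regions) and 158 did not pass. Of all position-named probes tested 4.73% were lower and 7.96% higher, and of all probes 9.13% and 7.15%, so the share of higher members was near the background. Through LIF_serum alone entered 40 members, 21 of the 37 lower ones among them, and through 2iSB_LIF alone 41, among them 15 of the 16 higher ones. On all 8 arrays 130 members were measured, of which 16 were lower (12.3%) and 1 higher (0.769%), against 3.64% and 4.47% of position-named probes. With slide as a block 36 were lower and 14 higher, and within slide 1 51 and 10, again without the shares of all probes. Within slide 2, 2iSB_LIF has 1 array, and calls there are not counted. Without LIF_serum array 4, 10 were higher. A_30_P01030135 read -4.90, -6.72, -6.71 and -4.65 in 2iSB_LIF, 2 of them above background (limma difference -4.48, SE 0.55, adjusted p = 4.9e-05, and -3.80 with the floor). A_30_P01022276 was above background on no 2iSB_LIF array, and LIF_serum was at least 9.87-fold higher (limma adjusted p = 0.00064). For A_30_P01019163, 2iSB_LIF array 4 read -3.64 and the others, not above background, -7.18 to -7.07 (limma difference -3.66, SE 0.94, adjusted p = 0.0098, and -2.42 with the floor). Within slide 1 this call was lost too (adjusted p = 0.19). All 5 members of chr14:22267795-22319045 were lower here too, by -1.91 to -1.81.

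Both probes of chr3:86827945-86886695 that are members were higher in 2iSB_LIF, and neither was above background in LIF_serum. The bounds were at least 4.17-fold for A_30_P01022760 (limma adjusted p = 6.3e-05) and at least 2.70-fold for A_30_P01029222 (adjusted p = 0.00016). A_30_P01029222 read -6.88 to -5.97 in LIF_serum, -4.01, -3.29, -3.38 and -3.08 in 2iSB_LIF and -1.87 to -1.04 in EpiSC, with no overlap among these groups. All 3 members of chr18:38398058-38409852 were also called higher. Of these A_30_P01021084 was not above background in LIF_serum, and its bound was only 1.26-fold (limma adjusted p = 0.0062). Its call was lost with the floor (adjusted p = 0.41) and within slide 1 (adjusted p = 0.23).

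Between 2iSB_LIF and 2i_LIF, lines that differ in the receptor inhibitor, limma called 0 of 183 members tested. Without adjustment, limma p was under 0.05 for 19 of them (10.4%), 18 higher in 2iSB_LIF, against 4.84% of all probes tested. Through 2iSB_LIF alone entered 43 of the 183 and through 2i_LIF alone 12, so the filter itself favoured the former direction. The share of all probes is not split by direction here, so no trend is read from the 18. The lowest adjusted p among members was 0.33, and their differences ran from -0.83 to 1.91. Of all probes tested 0.0205% were called higher and 0.0513% lower, and of position-named probes 0% and 0.0524%. Within slide 1 0 members were called. Within slide 2 each of these groups has 1 array, so that the medium and the single array cannot be told apart. The spread in that fit came from the LIF_serum and EpiSC arrays, so its calls, found among members and among all probes, are not counted here.

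Just inside the margin of 1 stood A_30_P01027162 of chr12:52880692-52933444 (R) at 1.0047, A_30_P01019267 of chr4:136856064-136875614 (R) at 1.0069 and A_30_P01020390 of chr3:68867193-68876128 (F) at 1.0074. Just outside stood A_30_P01019010 of chr11:96111499-96126224 (R) at 0.9996, A_30_P01027017 of chr6:117329899-117516899 (F) at 0.9990 and A_30_P01026892 of chr7:88131123-88136898 (R) at 0.9968. For A_30_P01019267 the lowest EpiSC array read -3.58 and the highest LIF_serum array -3.71, and 2 ground-state arrays, at -3.43 and -3.33, lay above the lowest EpiSC array. The number of members depends on how the values were made. It was 210 with normexp background correction, 885 with quantile normalization and 1090 with arrays centred on their median, which moved the median difference between EpiSC and the other groups over all probes from -0.01 to 0.52. In all 208 members in 98 regions met the rule under each of these settings, in the authors' deposited table and with dim values raised to the background floor. All 586 were members after median centring, and 209 of them with normexp. With dim values raised to the floor 437 were left. On slide 2 alone, where all EpiSC arrays lie, 589 probes met the rule, and 463 of these are among the 586. There 2i_LIF and 2iSB_LIF are 1 array each.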

How the data were processed

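Agilent scanner files of 16 arrays were used. Per the file headers, the intensity values come from the scanner software Feature Extraction (version 10.7.1.1), whose processed signal is already background-corrected. The authors also deposited a table of log2 values, made with limma per the submitters' processing notes, whose normalization the sources used here do not state. It served as an alternative. Groups, lines and passages came from the labels. Spots of a probe were averaged and outlier spots left out (100 to 321 per array). In R 4.3.3, lmFit and eBayes of limma 3.58.1 fitted 4 group means to the 16 arrays, for probes that passed the background mark on every array of some group, and the script was tested on simulated data. Since arrays differ in line, p-values measure the spread between lines, which includes slide. Named members are the 10 largest margins, the 5 highest in EpiSC, at most 5 members of each of the 3 largest groups of neighbouring regions, members of 5 regions with several, the 3 largest called differences each way, and those nearest the threshold. The rule of members, and the gene lists, were chosen with earlier results of these data known. Gene symbols of the marker lists came from RefSeq accessions (GRCm38 table), used for names alone, and 27656 probes matched. Normexp used the median spot signal, since the mean signal was not used here. Precision is limited by 4 arrays a group. Alternatives covered background correction, scaling, filters, slide, replicate block and single arrays, and slide 1 alone was added after seeing the data.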

Additional observations from a re-analysis of the deposited data

Results flagged for a closer look

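In each group of 4 arrays of the 43 named members, the array farthest from the others was compared with the whole range by Dixon's criterion, wherever the member was above background on some array of the group. Of 115 groups so compared, 17 stood out, whereas chance alone gives about 1 in 20, and probes of a region are not independent.

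Among EpiSC arrays, array 1 read -2.65 for A_30_P01020946 of chr2:94046243-94070067, with the others between -0.83 and -0.53. Array 4 stood apart for A_30_P01030135 of chr6:34548561-34612216, at 0.14 against 0.76 to 0.87, for A_30_P01018833 of chr13:28551902-28975446, at -1.06 against -0.89 to -0.87, and for A_30_P01022109 of chr14:22267795-22319045, at 5.23 against 5.04 to 5.07.

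In LIF_serum, array 2 read 4.15 for A_30_P01022109, and the others 3.79 to 3.84. In 2i_LIF, array 1 stood apart for A_30_P01024163 of chr1:175705225-175717250, at -2.18 against -6.72 to -6.22, and for A_30_P01027827 of chr2:128137419-128141735, at -6.30 against -5.30 to -5.19. Array 3 did so for A_30_P01028742 of chr10:18104309-18104881, at -3.43 against -4.80 to -4.64, and for A_30_P01019163 of chr5:123439974-123448354, at -2.62 against -7.49 to -6.73. Array 4 did so for A_30_P01019146 of chr2:128211990-128215223, at -3.65 against -5.06 to -4.89, and for A_30_P01029898 of chr2:128217275-128217972, at -5.56 against -3.42 to -3.25.

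In 2iSB_LIF, array 1 read -4.55 for A_30_P01027223 of chr2:94046243-94070067, against -7.79 to -7.25, and -1.25 for A_30_P01020390 of chr3:68867193-68876128, against -2.02 to -1.91. Array 3 read -4.88 for A_30_P01029898, against -3.45 to -3.42, and -3.88 for A_30_P01027162 of chr12:52880692-52933444, against -3.11 to -2.96. Array 4 read -4.06 for A_30_P01019195 of chr13:34693404-34717987, against -7.38 to -6.92, and -3.64 for A_30_P01019163, against -7.18 to -7.07. Most of the single high readings in the 2i_LIF and 2iSB_LIF groups stood among arrays that were not above background. No explanation of these readings was tested.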

How the results depend on the processing

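The 586 members became 210 with normexp, 1090 with median centring, 885 with quantile normalization, 1049 and 220 with margins of 0.5 and 2, and 109 when all 16 arrays had to be above background. Leaving out 1 array gave 570 to 697. Of the members lower in 2i_LIF than in LIF_serum (47), 18 were left with normexp, 17 with all 8 arrays above background and 30 in a fit of both groups alone, and 99 were called on slide 2. The members higher there (6) became 0 with normexp, 3 in the authors' table, 19 on slide 2, 11 against LIF_serum arrays 3 and 4, 0 with all 8 arrays above background and 11 with no minimum difference. The members lower in 2iSB_LIF (37) became 15 with normexp, 82 on slide 2, 58 against LIF_serum arrays 1 and 2, 75 with no background filter and 16 with all 8 arrays. The higher ones (16) became 0 with normexp, 5 in the authors' table, 9 with the floor, 25 on slide 2, 10 on slide 1 and 1 with all 8 arrays, and 10 to 16 without 1 array. Between 2iSB_LIF and 2i_LIF, 74 passed on slide 2 (1 array a group), and 0 to 1 without 1 array. The cause of these changes was not tested, except that stricter filters test fewer probes. Calls on slide 2 alone, where 2i_LIF and 2iSB_LIF have 1 array each, are not counted here. The other counts stayed within 1.5 times. With a replicate block the counts were 44 and 6 in 2i_LIF, 34 and 15 in 2iSB_LIF and 0 between them, and same-numbered arrays did not pair (24 correlations of -0.57 to 0.34, 7 over 0.1). No called difference of a named member changed direction. Signals near background limit 477 members, which some of the other arrays did not measure.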
